A study of Homo sapiens with 33 samples.

Results

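The 5 libraries described here, of 33 in the series, follow the breast cancer line MDA-MD-468 through 12 h of a combined treatment. They were taken by their labels alone: the SY200/V50 libraries at 3, 6 and 12 h, set against a DMSO and an untreated parental library of the same line, both given 0 h here. MDA-MD-468 is the labels' spelling of MDA-MB-468, a triple-negative breast cancer line with an amplified EGFR gene, and its genotype is given as WT in all 5 libraries. The series describes the agents as inhibitors of CDK7 and of CDK9. Which agent targets which of the 2 kinases is not in the labels, and the numbers in the agents' names carry no unit there. Side by side with these stand 3 V50 and 3 SY200 libraries of the same line at the same times, and the 3 SY200/V50, 1 DMSO and 1 parental libraries of MDA-MD-231, a mesenchymal breast cancer line.

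CDK7, with cyclin H and MAT1, sits in TFIIH, a general transcription factor, and phosphorylates the tail of RNA polymerase II as transcription starts. CDK9 pairs with cyclin T to form P-TEFb, which releases polymerase paused just past the promoter. Much P-TEFb is held inactive by the 7SK ribonucleoprotein, in which HEXIM1 blocks the kinase and MEPCE caps the 7SK RNA. Transcripts of immediate-early genes, MYC and MCL1 are known to turn over quickly in many cell types.

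The libraries were made from poly(A) RNA by QuantSeq, which reads each transcript next to its 3' end, so a count does not scale with transcript length. Total counts lay between 18250064 and 20981496 per library. Levels are CPM, counts relative to a library size scaled by trimmed means of M values (TMM), so each is a share of the RNA sequenced and no value measures RNA per cell. In bulk RNA, fewer cells of a kind and less RNA per cell cannot be told apart. Each condition and time has 1 library and separate cultures are not stated. The 3 treated libraries entered the test as a group although their times differ, and the DMSO and parental libraries as the other group although they differed by more than counting noise, with 120 of 9721 genes (1.23%) over 2-fold apart. The 23 genes that mark MDA-MD-468 had medians from 198 to 253 CPM in the treated libraries and from 159 to 214 CPM in the controls, against at most 0.566 CPM in MDA-MD-231. The 15 genes that mark MDA-MD-231 had medians from 5.25 to 7.16 CPM in the treated libraries and from 12.6 to 26 CPM in the controls, beside 233 to 616 CPM in MDA-MD-231, and summed to 3100 to 3420 CPM in treated and 1460 to 3060 CPM in control libraries. The 10 immune genes summed to 11.5 to 17.1 CPM in treated and 3.81 to 7.9 CPM in control libraries, with MS4A1 and NKG7 at 0. The 6 stromal genes summed to 17.3 to 21.6 CPM in treated and 18.7 to 19.6 CPM in control libraries, with DCN at 0. The part of these marker lists in the results was not tested.

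Against control, SY200/V50 changed 2218 of 16309 tested genes (13.6%) by edgeR's quasi-likelihood test with a Benjamini-Hochberg adjusted p under 0.05. Of these, 1700 were lower (10.4%) and 518 higher (3.18%), and 1463 of the lower and 421 of the higher genes moved more than 2-fold. In all 2218 the 3 treated libraries lay on 1 side of both controls, as they did in 9946 of the 16309 tested (61%). Of the higher genes 11 had 0 counts in both controls, and 1 of the lower genes had 0 counts in all treated libraries, so that their fitted folds have no set size. Among the 12 largest falls of genes with a mean of at least 10 CPM were the transcriptional regulators SOX9, MYC, ID3 and CEBPB, the ERK phosphatase DUSP5 and the receptor EPHB3, 8.75-fold to 10.7-fold lower than control. The counts rest on single libraries. Without the DMSO library 0 genes were higher and 54 lower, and without the parental library none passed in either direction. Without the 3, 6 or 12 h library the numbers were 3234 higher and 3943 lower, 19 higher and 170 lower, and 747 higher and 2309 lower, in that order of times. The 80 named genes past the threshold kept their direction in all 5 of these fits, but none kept its call without the parental library.

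**Figure D1:**
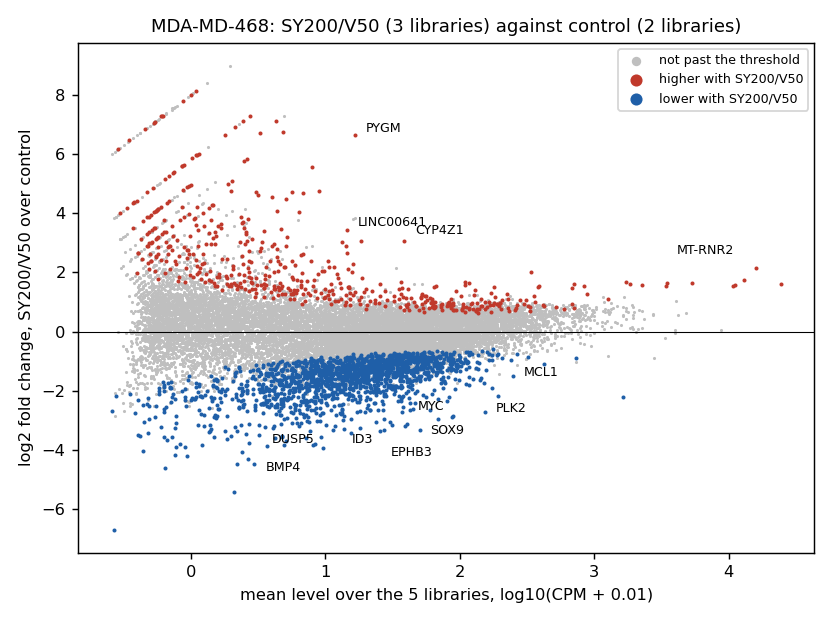
Each point is a gene, placed by its mean level over the 5 libraries (x, log10 of CPM + 0.01) and its log2 fold change of SY200/V50 (3 libraries) over control (2 libraries; y). Red and blue points are the 518 higher and 1700 lower genes, and most of the blue points lie between about 1 and 100 CPM.

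The promoter windows of 4 genes that fell and 1 that rose are shown because promoter motifs of the genes that fell and rose are counted next. Each window runs from 250 bases before to 50 after the RefSeq start (GRCh38.p14), on the gene's strand. Capitals mark the TATA box (searched as TATAAA), a cyclic-AMP response element (TGACGTCA), the core of a GC box (GGGCGG) and the CCAAT box, each on either strand, and in EPHB3 one GGGCGG on the reverse strand runs into CCAAT. The windows are ID3 at chr1:23559452-23559751 (minus strand), ZNF281 at chr1:200409987-200410286 (minus strand), EPHB3 at chr3:184561535-184561834 (plus strand), HEXIM1 at chr17:45148225-45148524 (plus strand) and CYP4Z1 at chr1:47066981-47067280 (plus strand).
ID3: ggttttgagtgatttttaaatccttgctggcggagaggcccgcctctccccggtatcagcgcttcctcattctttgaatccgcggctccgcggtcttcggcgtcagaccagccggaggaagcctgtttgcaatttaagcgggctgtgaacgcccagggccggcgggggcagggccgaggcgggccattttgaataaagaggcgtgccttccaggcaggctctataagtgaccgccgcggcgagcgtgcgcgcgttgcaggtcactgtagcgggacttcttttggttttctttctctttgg
ZNF281: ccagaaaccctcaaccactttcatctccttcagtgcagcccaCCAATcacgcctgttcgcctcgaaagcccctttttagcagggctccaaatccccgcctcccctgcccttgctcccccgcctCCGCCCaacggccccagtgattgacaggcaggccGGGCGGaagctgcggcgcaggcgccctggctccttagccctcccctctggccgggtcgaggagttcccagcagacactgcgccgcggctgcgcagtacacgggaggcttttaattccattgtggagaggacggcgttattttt
EPHB3: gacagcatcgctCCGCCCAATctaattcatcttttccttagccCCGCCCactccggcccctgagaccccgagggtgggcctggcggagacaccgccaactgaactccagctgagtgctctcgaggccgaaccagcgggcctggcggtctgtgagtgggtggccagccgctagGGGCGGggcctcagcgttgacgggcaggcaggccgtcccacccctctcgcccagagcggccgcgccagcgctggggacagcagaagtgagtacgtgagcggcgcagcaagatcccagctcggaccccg
HEXIM1: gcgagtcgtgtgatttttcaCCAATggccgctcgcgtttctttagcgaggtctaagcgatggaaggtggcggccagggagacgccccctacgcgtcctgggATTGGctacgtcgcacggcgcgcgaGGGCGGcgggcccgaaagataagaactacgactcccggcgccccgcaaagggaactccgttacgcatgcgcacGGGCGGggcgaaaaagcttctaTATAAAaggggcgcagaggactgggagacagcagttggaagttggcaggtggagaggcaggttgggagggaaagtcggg
CYP4Z1: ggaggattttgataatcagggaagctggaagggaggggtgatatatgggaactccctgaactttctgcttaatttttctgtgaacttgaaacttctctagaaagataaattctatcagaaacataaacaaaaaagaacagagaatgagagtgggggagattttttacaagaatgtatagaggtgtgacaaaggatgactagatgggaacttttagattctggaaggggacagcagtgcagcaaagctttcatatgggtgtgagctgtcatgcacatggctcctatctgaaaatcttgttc

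Among 7854 tested genes with a single RefSeq window, GGGCGG was found in 77% of the 975 lower genes, in 48.9% of the 178 higher genes and in 71.3% of all. TATAAA was found in 5.44% of the lower, 12.4% of the higher and 5.82% of all windows. CCAAT was found in 41% of the lower, 35.4% of the higher and 37.8% of all windows, and TGACGTCA in 3.49%, 2.25% and 3.55%. Median GC content was 66.3% in the lower, 58.7% in the higher and 65.7% in all windows. The windows of the lower genes thus lay near those of all genes, and those of the higher genes held fewer GC boxes. Of the windows printed, HEXIM1 holds 1 TATAAA, 2 GGGCGG and 2 CCAAT, and ID3 and CYP4Z1 hold none of the 4 motifs.

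Of 22 tested developmental and lineage transcription factors, 15 were lower and 0 higher, with a median log2 fold change of -1.90, against -0.01 over all genes tested. Beside this and each later list against control stand 10.4% lower and 3.18% higher over all genes. SOX9, which directs progenitor and chondrocyte programmes, had 12.4, 10.8 and 9.38 CPM at 3, 6 and 12 h of SY200/V50, against 74.8 CPM in DMSO and 144 CPM in parental cells. All 3 treated libraries lay far below both controls, and the 2 controls differed from each other by more than the treated libraries did. The log2 fold change was -3.33 ± 0.30 (SE, adjusted p = 0.00396). ID3, an inhibitor of basic helix-loop-helix factors and a target of BMP signalling, had 6.42, 7.41 and 8.53 CPM with SY200/V50, against 62.0 CPM in DMSO and 71.5 CPM in parental cells. Its fall was as deep at 3 h as later, and the log2 fold change was -3.17 ± 0.22 (SE, adjusted p = 0.0039). FOXC1, a forkhead factor of basal-like breast cancer, fell by 2.68 ± 0.26 on the log2 scale (SE, adjusted p = 0.00405). DLX3, a homeobox factor of epidermis and placenta, had 4.74, 2.36 and 2.03 CPM with SY200/V50, against 27.1 CPM in DMSO and 32.9 CPM in parental cells.

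CEBPB and CEBPA, a pair of bZIP factors of differentiation and inflammation, fell alongside. CEBPB had 12.5, 7.94 and 7.02 CPM with SY200/V50, against 67.3 CPM in DMSO and 99.8 CPM in parental cells. CEBPA had 4.44, 2.36 and 0.59 CPM with SY200/V50, against 30.1 CPM in DMSO and 19.9 CPM in parental cells. CEBPB lay about level from 6 h, while CEBPA went on falling to 12 h (slope -1.32 on the log2 scale per doubling of time, adjusted p = 0.0188). Their log2 fold changes were -3.19 ± 0.31 and -3.32 ± 0.61 (SE, adjusted p = 0.00405 and 0.0168). RIOX1, a ribosomal oxygenase, had 3.41, 2.15 and 2.62 CPM with SY200/V50, against 23.2 CPM in DMSO and 27.3 CPM in parental cells. ZNF281, a zinc finger factor of stem cells, had 7.6, 5.90 and 4.13 CPM with SY200/V50, against 54.9 CPM in DMSO and 63.5 CPM in parental cells. ZNF526, another zinc finger gene, had 2.52, 2.47 and 2.30 CPM with SY200/V50, against 19.9 CPM in DMSO and 23.4 CPM in parental cells. Over the gene family named ZNF, 184 of 434 tested members were lower and 0 higher, with a median log2 fold change of -0.91. ZNF217, an amplified oncogene in some breast cancers, fell by 2.64 ± 0.23 on the log2 scale (SE, adjusted p = 0.0039).

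WNT and BMP response genes, which set epithelial fate, gave 11 lower and 0 higher of 15 tested, with a median log2 fold change of -1.95. BAMBI, a decoy receptor for BMP and TGF-beta ligands, had 3.70, 3.54 and 4.39 CPM with SY200/V50, against 23.2 CPM in DMSO and 29.7 CPM in parental cells. The ligand BMP2 had 1.19, 0.91 and 0.59 CPM with SY200/V50, against 8.63 CPM in DMSO and 12.3 CPM in parental cells. The ligand BMP4 had 10, 4 and 3 counts with SY200/V50, against 138 counts in DMSO and 173 counts in parental cells. The treated libraries of all 3 genes lay below both controls, as in every gene called lower. EPHB3, an ephrin receptor and WNT target, had 8.20, 3.97 and 4.07 CPM with SY200/V50, against 59.7 CPM in DMSO and 51.0 CPM in parental cells, a log2 fold change of -3.35 ± 0.34 (SE, adjusted p = 0.00452). Of 26 structural keratin and junction genes of epithelia 4 were lower and 0 higher, beside 10.4% lower over all genes. Their median log2 fold change was -0.24. CLDN4 and CLDN3, tight-junction claudins, fell by 2.22 ± 0.34 and 1.61 ± 0.41 on the log2 scale (SE, adjusted p = 0.00987 and 0.0425).

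Feedback regulators of ERK and cytokine signalling had 14 of 19 tested members lower and 0 higher, with a median log2 fold change of -1.91. DUSP5, a nuclear phosphatase of ERK, had 4.94, 2.63 and 1.97 CPM with SY200/V50, against 28.7 CPM in DMSO and 39.8 CPM in parental cells. DUSP10, a phosphatase of p38 and JNK, had 2.37, 2.15 and 1.97 CPM with SY200/V50, against 9.55 CPM in DMSO and 10.4 CPM in parental cells. CISH, a cytokine-induced inhibitor of STAT signalling, had 1.43, 1.66 and 2.69 CPM with SY200/V50, against 13.1 CPM in DMSO and 18.7 CPM in parental cells. None of the treated values of these 3 genes reached a control value, which held for every gene called. The list of EGF-family receptors, MET, AXL and ligands gave 3 lower and 0 higher of 15. HBEGF, a ligand of EGFR, fell by 1.94 ± 0.43 on the log2 scale (SE, adjusted p = 0.0279), and the receptor FGFR2 by 1.28 ± 0.32 (SE, adjusted p = 0.0382). EGFR itself had 3050, 1838 and 1293 CPM with SY200/V50, against 3456 CPM in DMSO and 4259 CPM in parental cells. Its mean log2 fold change of -0.91 ± 0.35 did not pass (SE, adjusted p = 0.0988), while its slope over time did, at -0.62 per doubling (adjusted p = 0.0103). The mean change of EGFR passed in 5 of 12 alternative fits, the fit without the 3 h library among them (adjusted p from 3.01e-05 to 0.332 over the 12).

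Of 28 immediate-early genes tested, 12 were lower and 0 higher, with median log2 changes of -1.48, -0.69 and -0.82 at 3, 6 and 12 h. MYC, the growth-driving transcription factor, had 7.80, 11.9 and 10.0 CPM with SY200/V50, against 52.8 CPM in DMSO and 120 CPM in parental cells. It lay as low at 3 h as later, and the log2 fold change was -3.13 ± 0.36 (SE, adjusted p = 0.0048). SGK1, a serum-induced kinase, had 12, 14 and 8 counts with SY200/V50, against 117 counts in DMSO and 201 counts in parental cells. KLF4, a Kruppel-like factor of epithelia, fell by 2.37 ± 0.28 on the log2 scale (SE, adjusted p = 0.00489). In the MYC network 3 of 11 were lower and 0 higher, and MGA, a MAX partner that represses MYC targets, fell by 2.10 ± 0.33 (SE, adjusted p = 0.0106).

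**Figure D2:**
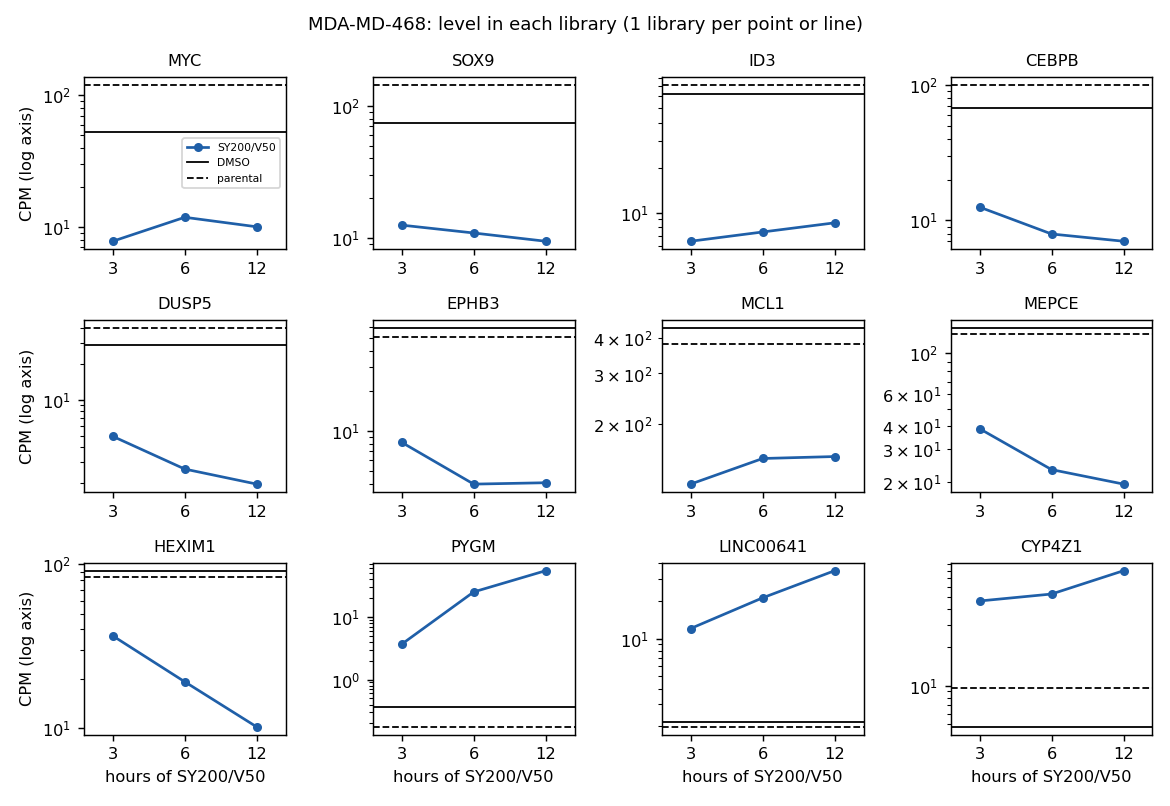
Levels in CPM (y, log axis, its range set for each gene) of 12 genes at 3, 6 and 12 h of SY200/V50 (blue points, 1 library each), with the DMSO (solid line) and parental (dashed line) libraries. MYC, SOX9 and ID3 sit low at all 3 times, HEXIM1 goes on falling to 10.1 CPM at 12 h, and PYGM goes on rising to 54.3 CPM.

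Of the apoptosis genes 3 of 9 inhibitors and 5 of 20 promoters were lower and 0 higher, beside 10.4% lower over all genes. MCL1, a short-lived inhibitor of apoptosis, had 123, 151 and 154 CPM with SY200/V50, against 433 CPM in DMSO and 380 CPM in parental cells. The treated libraries held about the same level from 3 to 12 h, and the log2 fold change was -1.51 ± 0.18 (SE, adjusted p = 0.00515). The other lower inhibitors were BIRC3 (log2 fold change -1.75 ± 0.29, adjusted p = 0.0128) and BCL2 (-1.14 ± 0.25, adjusted p = 0.0286). Among the lower promoters of apoptosis were the death receptor TNFRSF10A (-1.77 ± 0.26, adjusted p = 0.00886) and the BH3-only genes BBC3 (-1.93 ± 0.40, adjusted p = 0.0232) and BMF (-1.84 ± 0.38, adjusted p = 0.0239). PLK2, a polo-like kinase, had 41.6, 55.5 and 45.1 CPM with SY200/V50, against 214 CPM in DMSO and 413 CPM in parental cells. PLK3 fell by 2.51 ± 0.31 on the log2 scale (SE, adjusted p = 0.00576), and CDKN1A, which encodes the CDK inhibitor p21, by 1.62 ± 0.33 (SE, adjusted p = 0.0225).

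Of 17 heat shock genes 8 were lower and 0 higher, and the list's median log2 change was -0.43, -0.88 and -1.33 at 3, 6 and 12 h. HSPA1A, the inducible HSP70 chaperone, had 28.7, 20.3 and 27.3 CPM with SY200/V50, against 208 CPM in DMSO and 158 CPM in parental cells. HSPA1B, its near-identical copy whose reads may be shared with it, had 13, 19.1 and 19.3 CPM with SY200/V50, against 106 CPM in DMSO and 73.9 CPM in parental cells. The co-chaperones DNAJB1 and BAG3 fell by 1.91 ± 0.22 and 1.40 ± 0.19 on the log2 scale (SE, adjusted p = 0.00479 and 0.00786). In the integrated stress and unfolded protein list 6 of 24 were lower and 0 higher. PPP1R15B fell by 2.11 ± 0.22 on the log2 scale (SE, adjusted p = 0.00452), and DNAJB9, a chaperone of the endoplasmic reticulum, by 2.09 ± 0.23 (SE, adjusted p = 0.00462). NF-kB and inflammatory genes gave 7 lower and 0 higher of 20, with IRF1, an interferon-regulated factor, down 2.03 ± 0.23 on the log2 scale (SE, adjusted p = 0.00462) and NFKBIA, the inhibitor of NF-kB, down 1.05 ± 0.20 (SE, adjusted p = 0.0182). Of 21 YAP and TEAD targets 5 were lower and 0 higher, among them F3, which encodes tissue factor (-1.68 ± 0.26, adjusted p = 0.0102) and the junction protein gene AMOTL1 (-1.54 ± 0.24, adjusted p = 0.011). Interferon-stimulated genes gave 1 lower of 27, IFIT5 (-2.66 ± 0.50, adjusted p = 0.0177), and hypoxia and glycolysis genes 3 lower of 23, with PFKFB3, a regulator of glycolysis, at -1.74 ± 0.23 (SE, adjusted p = 0.00665). The first count lay below the 10.4% lower over all genes and the second near it. Neither list had a higher member, and none of 28 cholesterol and fatty acid genes passed in either direction.

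In the P-TEFb and 7SK list 5 of 14 were lower and 0 higher, beside 10.4% lower over all genes. The list's median log2 fold change was -0.69. No difference between the lists of the transcription machinery was tested. HEXIM1 had 36.5, 19.1 and 10.1 CPM with SY200/V50, against 91.5 CPM in DMSO and 83.8 CPM in parental cells. It lay lower at each later time, with a log2 fold change of -2.0 ± 0.45 (SE, adjusted p = 0.03) and a slope of -0.93 per doubling (adjusted p = 0.00739). MEPCE had 38.9, 23.3 and 19.4 CPM with SY200/V50, against 138 CPM in DMSO and 127 CPM in parental cells, with a slope of -0.51 per doubling (adjusted p = 0.0181). HEXIM2, a HEXIM1 relative, and ELL, an elongation factor, fell by 1.67 ± 0.36 and 1.40 ± 0.21 on the log2 scale (SE, adjusted p = 0.0273 and 0.00987). CDK9 had 18.2, 20.4 and 25.1 CPM with SY200/V50, against 35.2 CPM in DMSO and 35.9 CPM in parental cells, and at -0.75 ± 0.21 it did not pass (SE, adjusted p = 0.0549). It passed in 6 of 12 alternative fits, those without the 3 h or the 12 h library among them (adjusted p from 0.00283 to 0.257 over the 12).

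CDK7 had 22.1, 10.7 and 7.67 CPM with SY200/V50, against 31.4 CPM in DMSO and 28.9 CPM in parental cells. It lay just under the controls at 3 h and furthest below them at 12 h. The mean change of -1.16 ± 0.41 did not pass (SE, adjusted p = 0.0835), while the slope of -0.78 per doubling did (adjusted p = 0.0133). The mean change of CDK7 passed in 6 of 12 alternative fits, the fit without the 3 h library among them (adjusted p from 0.000548 to 0.317 over the 12). None of 8 tested genes of the CDK7 complex and TFIIH passed against control. Of 12 other transcriptional CDK and cyclin genes, CDK13, an elongation kinase, was the 1 lower (-1.34 ± 0.18, adjusted p = 0.00719), and CDK12, its relative, had 62.4, 33.2 and 18.6 CPM with SY200/V50, against 105 CPM in DMSO and 98.6 CPM in parental cells. CDK12 did not pass on its mean (-1.42 ± 0.43, adjusted p = 0.0599) and passed on its slope (-0.88 per doubling, adjusted p = 0.00739). Its mean change passed in 7 of 12 alternative fits, those without the 3 h or the 12 h library among them (adjusted p from 0.000183 to 0.28 over the 12). POLR2A, the large subunit of RNA polymerase II, had 224, 220 and 242 CPM with SY200/V50, against 269 CPM in DMSO and 247 CPM in parental cells (-0.18 ± 0.16, adjusted p = 0.426). Scaling to the mitochondrial mRNAs, which lowers all genes, put it at -1.63 and past the threshold, the 1 of 12 alternative fits to do so (adjusted p from 0.00423 to 0.751 over the 12). Of the 12 polymerase subunits tested POLR2D was the 1 lower (-0.87 ± 0.19, adjusted p = 0.0277), and of 16 NELF, DSIF and PAF genes the pausing factor subunit NELFA was the 1 lower (-1.18 ± 0.26, adjusted p = 0.0295). These counts of 1 lower lay near or below the share of 10.4% lower over all genes.

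In the cell cycle and repair lists the numbers called against control were near the shares over all genes, 10.4% lower and 3.18% higher. Median log2 fold changes were -0.06 for DNA replication and E2F genes, -0.21 for homologous recombination and Fanconi genes, -0.41 for G2 and mitosis and -0.61 for G1. Of 36 DNA replication and E2F genes 5 were lower, among them the licensing factor CDT1 (-1.09 ± 0.19, adjusted p = 0.0154) and the cyclin CCNE2 (-1.39 ± 0.27, adjusted p = 0.0194), and 2 higher. Of 28 genes of G2 and mitosis 2 were lower and 0 higher, the kinase AURKA (-1.24 ± 0.22, adjusted p = 0.0154) and the centromeric histone CENPA (-0.83 ± 0.22, adjusted p = 0.0433). A slope below 0 was found in 12 of the 28, beside 1636 of 16309 (10%) over all genes. The median log2 change of G2 and mitosis genes was -0.08, -0.48 and -0.67 at 3, 6 and 12 h. Of 30 homologous recombination and Fanconi genes 3 were lower, among them FANCF (-2.27 ± 0.47, adjusted p = 0.0235), and 1 higher, FANCI (0.73 ± 0.18, adjusted p = 0.0403). FANCF is a gene of the Fanconi core complex and FANCI a subunit of its target. Of 15 genes of G1, 2 were lower, CDKN1A and CCND1, which encodes cyclin D1 (-1.30 ± 0.33, adjusted p = 0.0406).

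Few lists held higher genes. All 13 mitochondrially encoded mRNAs were higher, with median log2 changes of 0.93, 1.42 and 2.20 at 3, 6 and 12 h. They took 7.06%, 9.24% and 13.5% of all counts at 3, 6 and 12 h of SY200/V50, against 3.93% in DMSO and 3.88% in parental cells. MT-CO3, a subunit of cytochrome c oxidase, had 10790, 13140 and 21660 CPM with SY200/V50, against 4995 CPM in DMSO and 5140 CPM in parental cells. MT-RNR2, the large mitochondrial ribosomal RNA, had 10320, 16290 and 42120 CPM with SY200/V50, against 5510 CPM in DMSO and 4847 CPM in parental cells. These are shares of each library: scaled to the mitochondrial mRNAs instead, the median of all genes moved to -1.44, 9456 genes were lower and 170 higher, and higher genes were 1.77% of the genes called, against 23.4% under TMM.

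Most nuclear oxidative phosphorylation and ribosomal protein genes lay above control, few of them past the threshold. Of 48 nuclear oxidative phosphorylation genes 47 lay above both controls in all 3 treated libraries, but 2 passed, among them COX6C, a cytochrome c oxidase subunit (0.98 ± 0.26, adjusted p = 0.0481), and 26 had a slope above 0. Of 85 cytosolic ribosomal protein genes 76 lay above both controls, 2 passed, among them RPL22 (0.99 ± 0.26, adjusted p = 0.045), and 41 had a slope above 0. Over all genes 4901 of 16309 lay above both controls and 5045 below, and 1389 (8.52%) had a slope above 0. Of the nuclear noncoding RNAs and snoRNA hosts 3 of 19 were higher and 1 lower. NEAT1, the scaffold of paraspeckles, had 177, 219 and 124 CPM with SY200/V50, against 64.4 CPM in DMSO and 67.6 CPM in parental cells. MALAT1, a nuclear speckle RNA, rose by 1.01 ± 0.21 on the log2 scale (SE, adjusted p = 0.0235), SNHG6 rose by 1.20 ± 0.31 (SE, adjusted p = 0.0424) and SNHG7 fell by 0.78 ± 0.21 (SE, adjusted p = 0.0468). Among SR and hnRNP genes 1 of 26 was higher, the RNA-binding HNRNPC (0.77 ± 0.20, adjusted p = 0.0456), and 0 lower. Scaled to the mitochondrial mRNAs, with the median of all genes at -1.44, COX6C, RPL22, MALAT1, SNHG6, HNRNPC and FANCI turned to values below 0 but above that median.

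Of genes with a mean of at least 10 CPM, PYGM, the glycogen phosphorylase of muscle, rose most, with 3.65, 24.9 and 54.3 CPM at 3, 6 and 12 h of SY200/V50, against 0.37 CPM in DMSO and 0.18 CPM in parental cells. The control values rest on 8 and 4 counts, so the log2 fold change of 6.63 ± 1.27 is loose in size (SE, adjusted p = 0.0187). PHKG1, the catalytic subunit of phosphorylase kinase in muscle, had 6.76, 14.1 and 29.7 CPM with SY200/V50, against 3.86 CPM in DMSO and 3.47 CPM in parental cells. CYP4Z1, a cytochrome P450 of mammary tissue, had 46.4, 52.6 and 80.3 CPM with SY200/V50, against 4.73 CPM in DMSO and 9.57 CPM in parental cells, so that most of its rise stood at 3 h. The noncoding LINC00641 had 12.1, 21.2 and 34.9 CPM with SY200/V50, against 2.16 CPM in DMSO and 1.98 CPM in parental cells. It rose by 3.45 ± 0.49 on the log2 scale (SE, adjusted p = 0.00838).

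The keratin pseudogenes KRT18P15 and KRT18P17, both on chromosome 3 and both single-exon copies of KRT18, rose by 3.06 ± 0.38 and 3.01 ± 0.36 on the log2 scale (SE, adjusted p = 0.006 and 0.00519). Neither passed over all 11 libraries of the line. In MDA-MD-231 KRT18P15 had 0.56 CPM in DMSO and 13.7 CPM in parental cells, and KRT18P17 0.72 and 10.6 CPM. In MDA-MD-468 KRT18P15 had 27.3, 3.20 and 2.37 CPM with SY200 and 2.26, 2.85 and 15.5 CPM with V50 at 3, 6 and 12 h. Reads of such copies can be confused with those of the parent gene, and KRT18 itself had 938, 887 and 608 CPM with SY200/V50, against 850 CPM in DMSO and 1409 CPM in parental cells. KRT18 did not pass (adjusted p = 0.232). SH3BP5-AS1 lies antisense to SH3BP5 and rose by 2.67 ± 0.45 (SE, adjusted p = 0.0136). The strand setting of the counting is not stated, and reads of the overlapping pair may be mixed. Of 24 replication-dependent histone genes 3 were higher and 0 lower. The other large rises were FAM229A (2.90 ± 0.58, adjusted p = 0.0211), the histone gene H2BC21 (2.39 ± 0.65, adjusted p = 0.0488), GET4, of tail-anchored protein insertion (2.29 ± 0.49, adjusted p = 0.0257), and SGCD, a sarcoglycan of muscle (2.18 ± 0.38, adjusted p = 0.0148). Scaled to the mitochondrial mRNAs, FAM229A, H2BC21, GET4, SGCD, SH3BP5-AS1 and PHKG1 kept their direction but lost their call.

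The share of lower genes went down with exon number. Of 12513 protein-coding tested genes of the nuclear chromosomes matched by symbol to GENCODE v29 (GRCh38), 13% were lower and 2.18% higher. Of 275 with 1 exon in their longest transcript, 43.3% were lower and 0.727% higher, with a median log2 fold change of -1.21. The lower share was 23.2% with 2 to 4 exons, 11.8% with 5 to 9, 9.07% with 10 to 19 and 6.99% with 20 or more, with a median of -0.14 over all. HEXIM1 (chr17:45148502-45152101), CEBPA (chr19:33299934-33302564), CEBPB (chr20:50190734-50192689) and RIOX1 (chr14:73490964-73493392) are all single-exon genes. By gene span the lower share was 16.8% in the shortest of 5 equal groups and 10.7% in the longest, with medians of 0.02 and -0.24. By transcript length it was 5.59% in the shortest of 5 groups and 15.9% in the longest, with medians of 0.345 and -0.37. Exon number and transcript length were each grouped alone, and how they combine in the falls was not tested. At 12 h the 1-exon genes had a median log2 change of -1.10 with SY200/V50, -0.25 with V50, 0.02 with SY200, and -0.65 with SY200/V50 in MDA-MD-231. At 3 h these medians were -0.722, -0.55, -0.375 and -0.285 in the same order, so both single agents also lay below 0 then. Of 280 lincRNAs 18 (6.43%) were higher and 4 (1.43%) lower. Of 829 processed pseudogenes 29 (3.5%) were higher, near the 3.18% over all genes, and 12 (1.45%) lower, beside 10.4% over all genes.

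**Figure D3:**
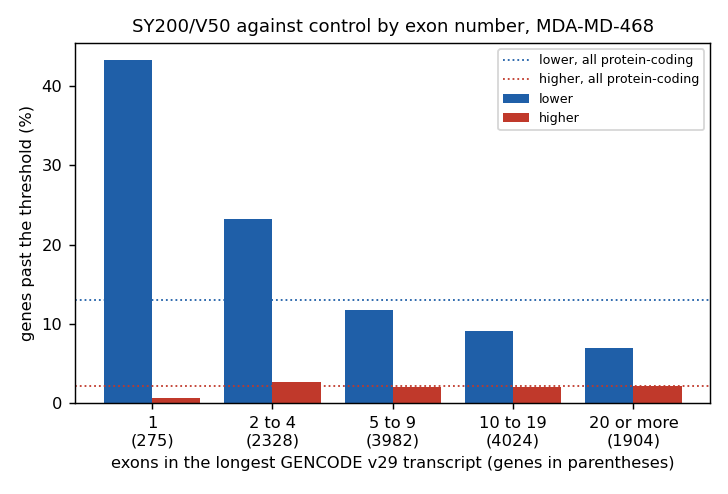
Bars give the percentage of protein-coding genes past the threshold against control, lower (blue) and higher (red), by the number of exons in the longest GENCODE v29 transcript, with the number of genes in parentheses. Dotted lines mark all 12513 genes, and the lower share goes down from 43.3% to 6.99% as exons increase.

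Counted without any test over the 9457 genes of at least 10 CPM, 702 (7.42%), 1347 (14.2%) and 1774 (18.8%) lay more than 2-fold below control at 3, 6 and 12 h, and 69, 161 and 756 more than 2-fold above. Both numbers were larger at each later time. The 1700 lower genes were called on the mean of the 3 times, which favours genes that are alike at all 3, so their course is a description of that choice. They had median log2 changes of -1.06, -1.40 and -1.43 at 3, 6 and 12 h. Between 3 and 12 h 194 of them (11.4%) deepened by more than 1 on the log2 scale, 1489 stayed within 1 and 17 shrank by more than 1. The 518 higher genes had medians of 0.70, 1.11 and 1.30, and 130 of them (25.1%) rose by more than 1 further and 0 shrank.

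In a fit with log2 time among the treated libraries, 3025 of 16309 genes (18.5%) had a slope, 1389 above 0 (8.52%) and 1636 below 0 (10%). Of those below 0, 305 were also lower on the mean of the 3 times and 1331 were not called there. It rests on the ends of the series: without the 3 h library 1 gene was above 0 and 0 below, without the 12 h library none passed, and without the 6 h library 836 were above and 1129 below. Without the DMSO library the numbers were 2821 above and 3146 below, and without the parental library 3008 and 3315. Of the genes with the steepest slopes, CLDN8, a claudin, had 41.0, 13.6 and 2.36 CPM, EFNB1, an ephrin ligand, 12.1, 2.52 and 1.38 CPM, and INSR, the insulin receptor, 15.9, 4.19 and 2.36 CPM at 3, 6 and 12 h of SY200/V50. GNE, of sialic acid synthesis, had 267, 97.9 and 38.9 CPM, and PLPP3, a lipid phosphatase, 43.6, 15.2 and 7.09 CPM. Their DMSO and parental levels were 18.1 and 63.4 CPM for CLDN8, 25.7 and 32.5 for EFNB1, 24.6 and 25.9 for INSR, 113 and 300 for GNE, and 45.1 and 74.7 for PLPP3. CLDN8 and GNE at 3 h thus lay between their 2 controls and well below both at 12 h. SLC25A25, a mitochondrial carrier, had 7.6, 19.2 and 54.1 CPM with SY200/V50, against 24.8 CPM in DMSO and 19 CPM in parental cells, below both controls at 3 h and above both at 12 h. LHX4, a LIM homeobox factor, crossed its controls in the same way, with 8.64, 31.7 and 59.1 CPM with SY200/V50, against 16.9 CPM in each control. OSR2, a zinc finger factor, reached 14.5 CPM at 12 h, against 15.4 CPM in DMSO and 17.3 CPM in parental cells, with 2.27 and 3.92 CPM at 3 and 6 h. IQCN had 2.42, 18.0 and 59.2 CPM with SY200/V50, against 3.03 CPM in DMSO and 0.66 CPM in parental cells. BTF3P10, a pseudogene, had 3.01 and 2.42 CPM at 3 and 6 h and 71.6 CPM at 12 h, so that its slope is that of 1 library.

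**Figure D4:**
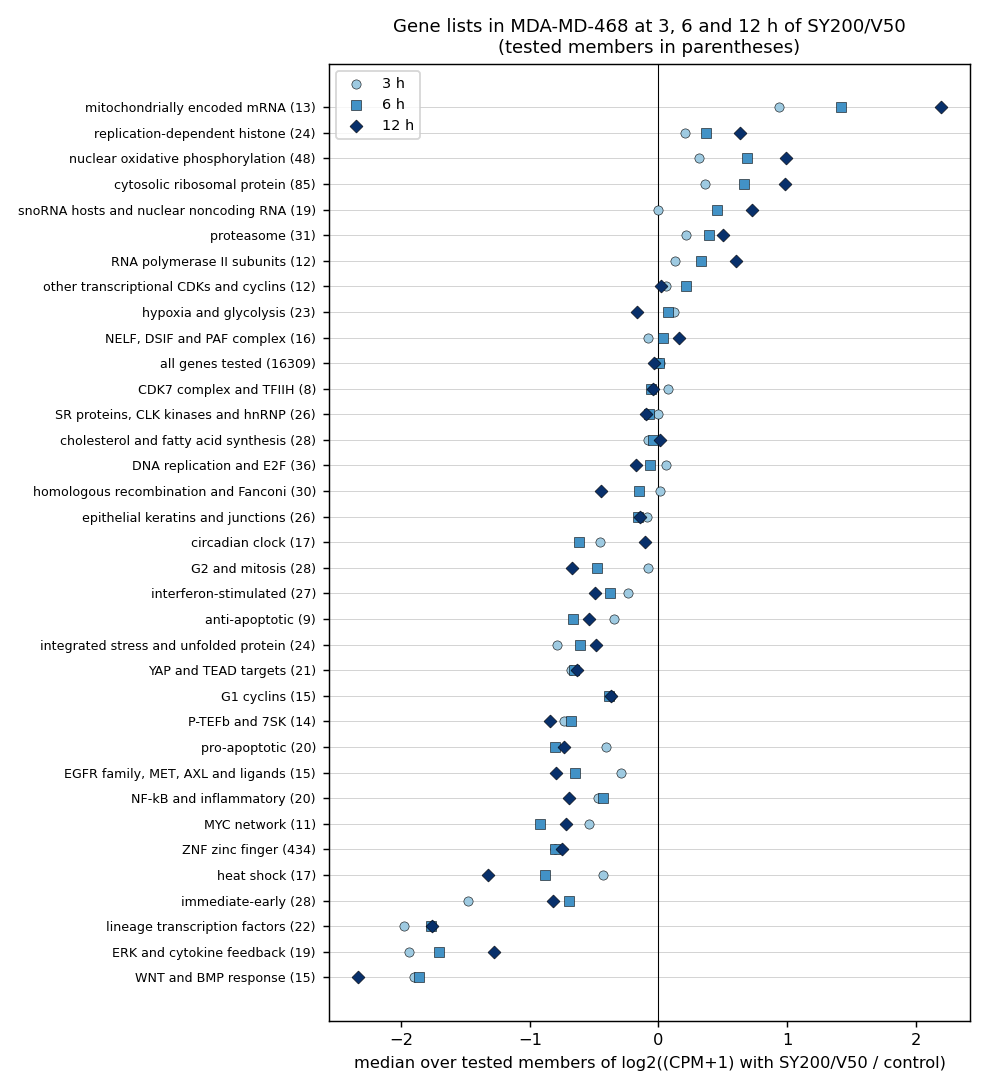
Median over the tested members of each list of the log2 change of CPM + 1 from the mean of the 2 controls (x), at 3 h (circles), 6 h (squares) and 12 h (diamonds) of SY200/V50, 1 library each. The 13 mitochondrial mRNAs move right with time to 2.20, and the lineage, ERK feedback and WNT/BMP lists lie below -1 at all 3 times.

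The single agents in the same cells are set beside the combination at matched times. These comparisons share the DMSO and parental libraries, and the genes were chosen in the combination. The 1700 lower genes had median log2 changes of -1.06, -1.40 and -1.43 with SY200/V50, -0.91, -0.79 and 0.00 with V50, and -0.61, -0.23 and -0.03 with SY200 at 3, 6 and 12 h. The 518 higher genes had 0.70, 1.11 and 1.30 with SY200/V50, 0.70, 0.87 and 0.56 with V50, and 0.66, 0.48 and 0.27 with SY200. Mitochondrial mRNAs took 13.5% of counts at 12 h of SY200/V50, 7.42% at 12 h of V50 and 5.72% at 12 h of SY200.

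In a fit of the 11 libraries of the line with a term for time, SY200/V50 was lower than V50 in 218 of 17206 genes (1.27%) and higher in 2 (0.0116%). It was lower than SY200 in 1662 (9.66%) and higher in 571 (3.32%). The counts against V50 fell to 0 in both directions without the SY200/V50 library of 6 h or the V50 library of 6 or 12 h, and the lower count was 49 without the SY200/V50 library of 12 h, 77 without the DMSO and 77 without the parental library, 134 and 90 without the SY200 library of 6 or 12 h, 749 without the V50 library of 3 h and 2140 without the SY200/V50 library of 3 h, which also gave 624 higher. In the other fits with 1 library left out, 0 to 9 genes were higher than with V50. Against SY200 the numbers went from 14 to 2392 higher and from 102 to 3364 lower, the lowest without the SY200/V50 library of 6 h, which gave 14 and 102. The SY200 library of 12 h left out gave 14 higher and 521 lower, that of 6 h 21 higher and 281 lower, and that of 3 h 1243 higher and 2229 lower. Without the SY200/V50 library of 12 h there were 22 higher and 470 lower, and without that of 3 h 2392 and 3364. Leaving out the DMSO library gave 279 higher, the parental library 280, the V50 library of 3 h 256 and that of 6 h 198.

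MCL1 had 123, 151 and 154 CPM with SY200/V50, 183, 328 and 546 CPM with V50, and 236, 427 and 505 CPM with SY200 at 3, 6 and 12 h. All 3 treatments lay below the controls at 3 h, and the combination alone of the 3 stayed there at 12 h. The combination was lower than V50 by a log2 difference of -1.16 ± 0.20 (SE, adjusted p = 0.0262) and than SY200 by -1.35 ± 0.20 (SE, adjusted p = 0.00431). MYC had 18.8, 62.3 and 38.7 CPM with V50 and 22.6, 69.9 and 38.9 CPM with SY200, and the combination was lower than V50 by -1.86 ± 0.30 (SE, adjusted p = 0.0212) and than SY200 by -2.0 ± 0.30 (SE, adjusted p = 0.00485). Like differences stood for SOX9, at -1.75 ± 0.34 from V50 (SE, adjusted p = 0.0392) and -2.22 ± 0.35 from SY200 (SE, adjusted p = 0.00554), and for ID3, at -1.93 ± 0.28 (SE, adjusted p = 0.0146) and -2.22 ± 0.28 (SE, adjusted p = 0.00206). The 10 named genes lower than with V50 kept their direction whichever library was left out, but none kept its call without the 6 h SY200/V50 library or the 6 or 12 h V50 library.

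HEXIM1 was otherwise: it had 38.4, 13.8 and 11.2 CPM with V50 and 61.2, 101 and 68.5 CPM with SY200, beside 36.5, 19.1 and 10.1 CPM with SY200/V50. The difference between the combination and V50, 0.07 ± 0.35 on the log2 scale, did not pass and its SE spans both signs (SE, adjusted p = 0.921). SY200 alone lay nearer the controls, and the combination differed from it by -2.06 ± 0.36 (SE, adjusted p = 0.00809). JUN, an AP-1 factor, parted the agents the other way. It had 32.5, 74.4 and 101 CPM with SY200/V50, 154, 389 and 308 CPM with V50, and 87.9, 106 and 134 CPM with SY200, against 159 CPM in DMSO and 104 CPM in parental cells. V50 alone lay above both controls at 6 and 12 h and the combination below both at all 3 times, a difference of -2.07 ± 0.25 (SE, adjusted p = 0.00878). The combination's own change in JUN from control did not pass (-0.93 ± 0.42, adjusted p = 0.139). It passed in 4 of 12 alternative fits, the fit without the 12 h library among them (adjusted p from 0.000319 to 0.516 over the 12).

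The other large differences from V50 were C15orf39 (-2.44 ± 0.25, adjusted p = 0.00878), the glycogen-targeting phosphatase subunit PPP1R3D (-2.53 ± 0.53, adjusted p = 0.0474), CHAC1, a glutathione-degrading stress gene (-2.37 ± 0.46, adjusted p = 0.0367), SERTAD1, a cell cycle regulator (-2.21 ± 0.25, adjusted p = 0.00878) and ZNF627 (-2.20 ± 0.36, adjusted p = 0.0212). C15orf39 shows the pattern: 6.76, 8.37 and 6.76 CPM with SY200/V50, 19.8, 55.6 and 53.6 CPM with V50 and 34.2, 48.7 and 48.0 CPM with SY200, against 58.0 CPM in DMSO and 55.9 CPM in parental cells. From 6 h on each single agent lay close to control while the combination stayed down. Of the immediate-early list 15 of 28 were lower in the combination than with V50, of ERK feedback genes 6 of 19, of lineage factors 5 of 22 and of ZNF genes 37 of 434, with 0 higher in each. Over all genes 218 of 17206 (1.27%) were lower than with V50. No gene passed without the 6 h SY200/V50 library or the 6 or 12 h V50 library.

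Against SY200, CEBPA was lower by a log2 difference of -3.30 ± 0.68 (SE, adjusted p = 0.0155), with 13.5, 32.6 and 34.1 CPM with SY200 and 5.30, 3.28 and 14.8 CPM with V50. PPP1R3D differed by -3.08 ± 0.52 (SE, adjusted p = 0.00714), IER5L by -3.04 ± 0.35 (SE, adjusted p = 0.00176), the HSP70 relative HSPA2 by -2.94 ± 0.47 (SE, adjusted p = 0.00585) and HPS6, of lysosome-related organelles, by -2.82 ± 0.38 (SE, adjusted p = 0.00265). HSPA2 in the combination did not pass against V50 (-0.31 ± 0.45, adjusted p = 0.70). PYGM (3.75 ± 0.92, adjusted p = 0.0282) and the mitochondrial MT-ND4L (1.38 ± 0.32, adjusted p = 0.0223), MT-ATP8 (1.30 ± 0.24, adjusted p = 0.00927), MT-ND5 (1.20 ± 0.30, adjusted p = 0.029) and MT-RNR2 (1.15 ± 0.27, adjusted p = 0.0254) were higher than with SY200. Against V50 neither PYGM (1.32 ± 0.75, adjusted p = 0.327) nor MT-RNR2 (0.58 ± 0.27, adjusted p = 0.266) passed, and 0 of the 13 mitochondrially encoded mRNAs were higher. With V50 alone PYGM had 3.24, 15.6 and 9.89 CPM at 3, 6 and 12 h. CD109, a surface glycoprotein, was also higher than with SY200 (1.21 ± 0.28, adjusted p = 0.0226), and there it was SY200 that lay low, with 195, 230 and 267 CPM with SY200/V50 and 152, 79.1 and 79.3 CPM with SY200, against 141 CPM in DMSO and 237 CPM in parental cells.

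**Figure D5:**
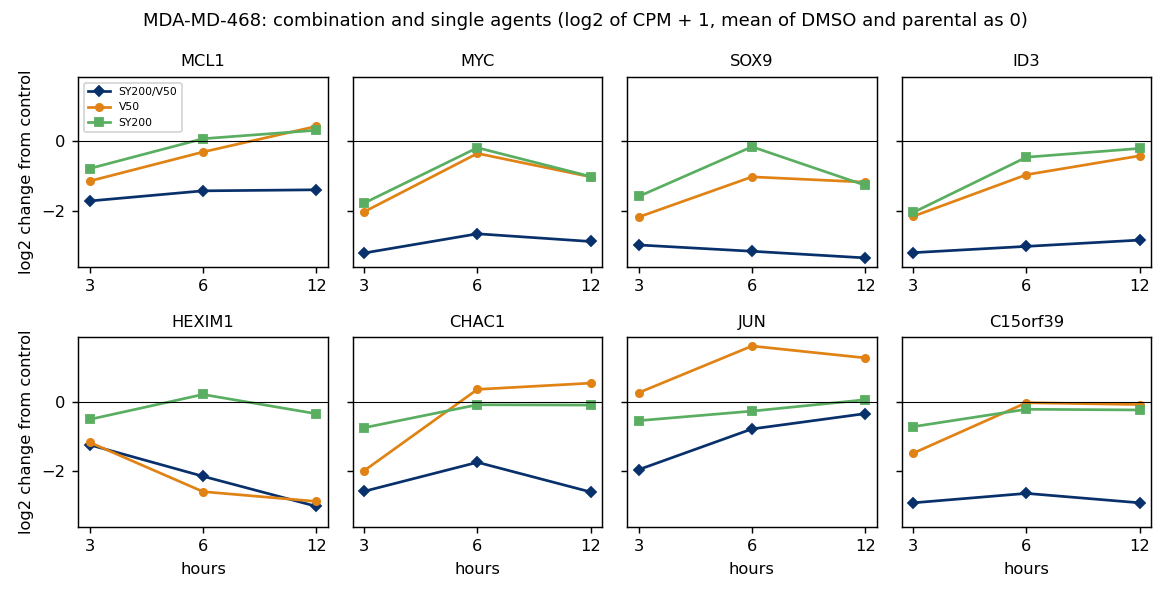
Change in log2 of CPM + 1 from the mean of DMSO and parental cells (y) at 3, 6 and 12 h with SY200/V50 (dark diamonds), V50 (orange circles) and SY200 (green squares) for 8 genes, 1 library per point. For MCL1 the combination stays at -1.39 at 12 h, where V50 is at 0.43 and SY200 at 0.32, and for HEXIM1 the V50 and combination lines run together.

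The same treatment in MDA-MD-231 gave 0 of 17923 genes (0%) whose effect differed between the lines after adjustment by edgeR, with 2571 genes at an unadjusted p under 0.05 and a lowest adjusted p of 0.102. DESeq2 called 165 higher and 152 lower in MDA-MD-468. Leaving out the 3 h SY200/V50 library of MDA-MD-468 gave 106 higher and 29 lower, leaving out that of MDA-MD-231 gave 59 and 50, and leaving out the MDA-MD-231 parental library gave 4 and 0. The genes lower in MDA-MD-468 had medians of -1.06, -1.40 and -1.43 there, beside -0.78, -1.39 and -1.82 in MDA-MD-231. The 518 genes higher in MDA-MD-468 had 0.70, 1.11 and 1.30 there, beside 0.19, 0.53 and 0.49 in MDA-MD-231. Both sets were chosen in MDA-MD-468. MCL1 had 123, 151 and 154 CPM in MDA-MD-468, beside 59.5, 59.1 and 22.2 CPM in MDA-MD-231, whose controls were at 490 CPM in DMSO and 444 CPM in parental cells. The line difference of 2.12 ± 0.43 on the log2 scale did not pass (SE, adjusted p = 0.161). MYC had 7.80, 11.9 and 10.0 CPM in MDA-MD-468, beside 12.4, 91.8 and 92.2 CPM in MDA-MD-231, with 153 CPM in DMSO and 138 CPM in parental cells of that line (difference -1.37 ± 0.69, adjusted p = 0.405). ID3 had the lowest unadjusted p of the genes named here for the line difference, at -3.48 ± 0.41, with an adjusted p of 0.102.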

How the data were processed

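The authors deposited raw counts of reads for each gene symbol in every library. FastQC, STAR 2.7.10a and GRCh38 are named in the submitters' processing notes. How reads were counted (tool, annotation, strand, molecular identifiers) is not given in the sources used here, and PCR copies may be among the counts. Genes were kept by filterByExpr (minimum count 10, minimum total 15), scaled by TMM and tested in edgeR 4.0.16 (R 4.3.3) with the quasi-likelihood F test, Benjamini-Hochberg adjusted over all genes tested. The main fit held 5 libraries (3 residual degrees of freedom), the slope fit added log2 time within the treated libraries, the fit against single agents had 11 libraries and a term for time, and the line fit 10. Standard errors are those implied by the F statistic. Changes at 1 time use log2 of CPM + 1. Scripts were tested on simulated counts. Genes named are CDK7, CDK9 and POLR2A, up to 12 largest rises and 12 largest falls past the threshold whose mean reached 10 CPM, up to 4 members per list by adjusted p, and up to 6 per direction in the other comparisons, where a gene may stand in several. Not all of these are printed, some items are not reported here, and EGFR and KRT18 were added after their values were seen. The members and lists were chosen with earlier results of these data known. Gene models are from GENCODE v29 and promoter windows from RefSeq (GRCh38.p14). Alternatives were DESeq2 1.42.0, its size factors, no filter, scaling to the 13 mitochondrial mRNAs, DMSO alone, all 11 libraries, a time covariate and leaving out each library. Against control, DMSO alone is the same fit as leaving out the parental library. It is counted under both names among the 12 alternative fits.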

Additional observations from a re-analysis of the deposited data

Results flagged for a closer look

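The change with time differed between 3, 6 and 12 h for 1389 genes with a slope above 0 and 1636 below 0, by the slope test, and none or 1 of these passed without the 3 h or the 12 h library. The steepest slopes, in log2 per doubling of time, were 2.44 for BTF3P10, 2.24 for IQCN, 1.88 for PYGM, 1.41 for SLC25A25, 1.37 for OSR2 and 1.36 for LHX4 above 0. Below 0 they were -1.99 for CLDN8, -1.68 for EFNB1, -1.44 for INSR, -1.40 for GNE, -1.33 for PLPP3 and -1.32 for CEBPA.

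In every SY200/V50 library CCND1 lay below both controls in MDA-MD-468 and above both in MDA-MD-231, with a log2 difference between the lines of -1.69 ± 0.42 (SE, adjusted p = 0.201 by edgeR). CCND1 had 137, 96.8 and 63.8 CPM at 3, 6 and 12 h in MDA-MD-468, and 1050, 1207 and 1537 CPM in MDA-MD-231, where DMSO had 790 and parental cells 928 CPM. NEAT1 went the other way, above both controls in MDA-MD-468 and below both in MDA-MD-231, with a difference of 2.78 ± 0.40 (SE, adjusted p = 0.102 by edgeR). NEAT1 had 20.1, 20.9 and 14.9 CPM with SY200/V50 in MDA-MD-231, where DMSO had 58.7 and parental cells 27.0 CPM. Neither difference passed the adjusted threshold.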

How the results depend on the processing

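Against control, DESeq2's size factors gave 571 higher and 1657 lower genes. Genes higher and lower were 1559 and 2869 with no filter, 170 and 9456 with mitochondrial scaling, 0 and 0 with DMSO alone, 3387 and 4729 with log2 time as a covariate, and numbered 1766 and 2535 by DESeq2 and 1612 and 1950 over all 11 libraries. Leaving out 1 library gave 0 to 3234 higher and 0 to 3943 lower. Slopes above and below 0 numbered 2016 and 2465 with no filter, 162 and 11084 with mitochondrial scaling, and 0 to 3008 and 0 to 3315 with 1 library left out. Between lines, DESeq2 gave 165 and 152, mitochondrial scaling 13 and 22, and leaving out 1 library 0 to 106 and 0 to 50. Against V50 the numbers higher and lower were 153 and 1728 with no filter, 7 and 1124 by DESeq2, 0 and 69 with mitochondrial scaling, 0 and 4 with no term for time, and 0 to 624 and 0 to 2140 with 1 library left out. Against SY200 they were 1207 and 3092, 1138 and 2482, 76 and 6511, and 116 and 632 in that order, and 14 to 2392 and 102 to 3364 with 1 library left out.

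Mitochondrial scaling turned FANCI to -0.75, MALAT1 to -0.50, SNHG6 to -0.37, HNRNPC to -0.72, COX6C to -0.58 and RPL22 to -0.54, and MT-CO3, one of the genes it centres on 0, lay at -0.0018 by construction. With that scaling 8 other rises kept their direction but lost their call. They were FAM229A, H2BC21, GET4, SGCD, SH3BP5-AS1, PHKG1, NEAT1 and MT-RNR2. The slope of BTF3P10 was -0.32 without the 12 h library and 4.87 without the 3 h library. The difference of HEXIM1 from V50, not past the threshold, was -0.31 with mitochondrial scaling and -0.22 to 0.54 with 1 library left out, and that of HSPA2 -1.08 to 0.17. Of 10 named genes lower than with V50, 0 kept their call without the 6 h SY200/V50 library or the 6 or 12 h V50 library and 1 with no term for time, and all 10 kept their direction. Of 16 named genes that differed from SY200, 4 to 16 kept their call with 1 library left out and all 16 their direction. Of the 80 named genes past the threshold against control, 80 kept their call by DESeq2, 79 with DESeq2's size factors, 74 over all 11 libraries, 65 with mitochondrial scaling, 33 without the 6 h library, 17 without the DMSO library and 0 without the parental library or with DMSO alone. Of the 6 named genes not past it, 6 gained the call with mitochondrial scaling, 5 with no filter, 5 with the time covariate, 4 by DESeq2, 4 without the 3 h library, 3 without the 12 h library and 2 over all 11 libraries. The causes were not tested. Treatments were matched by time through the term for time. No paired analysis was possible because the labels give no replicate numbers and the controls have no matched times. Depth limits genes of few counts, such as PYGM in control cells and BMP4 in treated cells.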
